A study of Mus musculus with 36 samples.

Results

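The 7 genes described here belong to hepatic drug metabolism and were followed across 36 mouse livers: the cytochrome P450 enzymes Cyp2b9, Cyp2b10 and Cyp2b13, the nuclear receptors Nr1i3 (CAR) and Nr1i2 (PXR), and Por and Alas1, which serve P450 enzymes in general. They were found by an exact match of the gene name on the array, which gave 11 probes for 7 genes, of 56605 probes for 37325 genes in all. Of the 7 genes, 6 passed the filter on dim probes and were among the 24251 genes tested. Cyp2b13 was well above background on 0 of 36 arrays and was not tested.

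The livers came from male C57Bl/6J mice in 6 groups of 6, with 1 array per mouse. In AAKO mice, white fat lacks ATGL (gene Pnpla2), the lipase that starts triglyceride breakdown, and CTRL mice are their controls. Mice of each genotype were fed freely, fasted for 24 h, or fed and given 3 mg/kg CL316243, an agonist of the adrenergic receptor beta 3 on adipocytes, by gavage at Zeitgeber time 10 in 0.5% carboxymethyl cellulose. Livers of all groups were taken at Zeitgeber time 16, during the night. The labels name no promoter or Cre line and no age, and gavage is stated for the CL316243 groups only. Both fed groups without CL316243 belong to experiment 2 and the other 4 groups to experiment 1, so in any comparison with fed mice the state and the experiment cannot be told apart. Hepatic Pnpla2 does not check the genotype, since the deletion is in adipose tissue.

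Enzymes of the CYP2B family oxidise drugs such as phenobarbital as well as endogenous lipids and steroids, and Cyp2b10 is the standard reporter of CAR activity in mouse liver. CAR and PXR are nuclear receptors that pair with RXR on DNA. CAR is held in the cytoplasm until an activator releases it to the nucleus, so its RNA level does not measure its activity. Cyp2b9 and Cyp2b13 are known as genes with higher expression in female than in male mouse liver. Por is the reductase that hands electrons from NADPH to microsomal P450 enzymes, and Alas1 makes the first intermediate of haem, which every P450 holds.

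The 3 Cyp2b genes lie in one stretch of chromosome 7, and their promoters are shown because 2 of the sequences are nearly the same while the third differs. Sequences run 5′ to 3′ over the 300 bases around the start of each gene, most of them before it (RefSeq, GRCm38.p6, plus strand): Cyp2b9 chr7:26173159-26173458, Cyp2b13 chr7:26061245-26061544 and Cyp2b10 chr7:25897408-25897707. In the first pair, capitals mark the bases that differ between Cyp2b9 and Cyp2b13. In Cyp2b10, they mark bases that differ from Cyp2b9, or are extra, in a global alignment.
Cyp2b9: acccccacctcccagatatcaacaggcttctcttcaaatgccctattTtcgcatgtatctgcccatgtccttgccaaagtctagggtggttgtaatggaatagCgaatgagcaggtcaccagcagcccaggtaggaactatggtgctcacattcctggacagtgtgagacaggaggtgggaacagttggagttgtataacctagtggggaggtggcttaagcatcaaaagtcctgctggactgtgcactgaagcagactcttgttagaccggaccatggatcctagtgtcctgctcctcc
Cyp2b13: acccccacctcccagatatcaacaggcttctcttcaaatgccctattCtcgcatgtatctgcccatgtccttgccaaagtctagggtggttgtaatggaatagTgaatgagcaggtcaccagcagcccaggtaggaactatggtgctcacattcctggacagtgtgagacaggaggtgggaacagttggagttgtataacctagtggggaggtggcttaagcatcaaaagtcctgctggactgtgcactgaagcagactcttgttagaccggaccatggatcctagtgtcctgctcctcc
Cyp2b10: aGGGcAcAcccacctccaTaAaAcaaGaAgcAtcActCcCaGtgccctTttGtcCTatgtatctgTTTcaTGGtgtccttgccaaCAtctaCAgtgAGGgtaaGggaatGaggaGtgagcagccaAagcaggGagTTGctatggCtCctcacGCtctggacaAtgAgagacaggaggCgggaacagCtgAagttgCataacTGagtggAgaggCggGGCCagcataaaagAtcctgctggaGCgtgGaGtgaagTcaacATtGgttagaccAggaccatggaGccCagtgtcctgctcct
Cyp2b9 and Cyp2b13 shared 298 of 300 bases (99.3%), with the substitutions T48C and C104T from Cyp2b9 to Cyp2b13, counted from 1 at the 5′ end. Cyp2b10 shared 230 of 286 aligned bases (80.4%) with Cyp2b9. The hexamer AGGTCA, the core bound by many nuclear receptors, occurred once in Cyp2b9 and in Cyp2b13, at position 113, and not in Cyp2b10, when both strands were searched. It occurred in 16.3% of 32851 promoters of the same length. The direct repeat of that hexamer with a spacer of 4 bases occurred in 0.0152% of them and in none of the 7 genes. TTGCNNAA, the C/EBP core, occurred at position 193 of Cyp2b10 and at position 71 of both others, against 10.8% of all promoters.

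The probes that report these genes are not equally specific. The Cyp2b9 probe (mm9, chr7:26995607-26995666) is listed by the array files under transcripts of both Cyp2b9 and Cyp2b10, so RNA of the 2 genes cannot be told apart in its signal. The brighter Cyp2b10 probe (mm9, chr7:26711522-26711581) is listed under Cyp2b10 alone and shares a longest run of 10 bases with the Cyp2b9 probe. A second, dimmer Cyp2b10 probe lies elsewhere in the gene (mm9, chr7:26702056-26702115). It gives a second reading of Cyp2b10, while every adjusted p of that gene comes from the brighter probe. It is shown with the brighter Nr1i3 probe (mm9, chr1:173147776-173147835), on which the Nr1i3 tests rest. Capitals mark the probe, which is printed whole. The exon or UTR in which each probe lies is not given in the sources used here.
Cyp2b10 second probe: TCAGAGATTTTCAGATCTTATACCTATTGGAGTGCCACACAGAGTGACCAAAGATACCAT
Nr1i3 probe: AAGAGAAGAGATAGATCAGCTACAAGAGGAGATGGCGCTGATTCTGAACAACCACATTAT

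Levels are on the log2 scale with each array's own 75th percentile set to 0, and the levels of different probes are not compared. On each array, 33128 to 37200 probes were well above background. Hepatocyte markers (6 of 6 measured) had summed levels of 11.43 to 11.78 on all arrays, and in whole liver fewer cells of a type and less RNA per cell cannot be told apart. One array stood apart: on the first principal component, which held 41.8% of the variance, CTRL fasted replicate 2 was at 81.3, against 16.8 to 29.0 for the other 5 arrays of its group and 103 to 111 for AAKO fasted. Its summed neutrophil marker level was 5.76, above 2.99, the highest of its group otherwise, and within the 2.65 to 6.39 of AAKO fasted. Values of the 6 tested genes that use fasted CTRL mice are given with and without it.

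In CTRL livers, Cyp2b10 and Cyp2b9 were high after a fast, intermediate in fed mice and low after CL316243, and in fed AAKO livers both were lower than in fed CTRL livers. Cyp2b10 in fed CTRL mice ran from 0.19 to 0.77 (median 0.48, mean 0.47 ± 0.23 SD, n = 6). In fed AAKO mice it ran from -4.39 to -1.24 (median -2.97, mean -3.06 ± 1.19 SD, n = 6). These groups did not overlap, and the AAKO livers spread over 3.15 log2 units against 0.58, with replicate 5 the highest. Replicates 1 and 6 were the lowest of the AAKO fed livers (-4.39 and -4.30) and had the highest summed neutrophil marker levels of that group (3.39 and 4.94, against -0.10 to 1.29 in the other 4), whose part in the Cyp2b values was not tested. Fasted CTRL mice ranged from 2.38 to 5.91 (median 4.84, mean 4.49 ± 1.24 SD, n = 6), and fasted AAKO mice from 3.22 to 5.00 (median 4.22, mean 4.19 ± 0.62 SD, n = 6). All 12 fasted livers lay above all 24 others, and the genotypes overlapped there.

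After CL316243, Cyp2b10 ran from -2.22 to 0.07 in CTRL mice (median -1.58, mean -1.42 ± 0.79 SD, n = 6) and from -3.88 to 0.44 in AAKO mice (median -2.35, mean -2.14 ± 1.53 SD, n = 6). In each of these groups replicate 4 was the highest. The order of group means was CTRL fasted, AAKO fasted, CTRL fed, CTRL CL316243, AAKO CL316243 and AAKO fed. Ranges overlapped between neighbours in that order except between AAKO fasted and CTRL fed and between CTRL fed and CTRL CL316243.

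Cyp2b9 followed the same order of groups. Its means were -0.91 ± 0.16 in CTRL fed, -4.37 ± 1.48 in AAKO fed, 3.11 ± 1.24 in CTRL fasted, 2.81 ± 0.64 in AAKO fasted, -2.90 ± 0.81 in CTRL CL316243 and -3.60 ± 1.70 in AAKO CL316243 (SD, n = 6 each). The Cyp2b9 probe passed the background criterion on 4 of 6 AAKO fed and 5 of 6 AAKO CL316243 arrays. Across the 36 arrays Cyp2b9 and Cyp2b10 had a Pearson r of 0.997, and of 0.98 after group and wash batch were taken out. These are descriptions over arrays of the same 6 groups, and the listing of the Cyp2b9 probe under both genes bears on them.

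**Figure D1:**
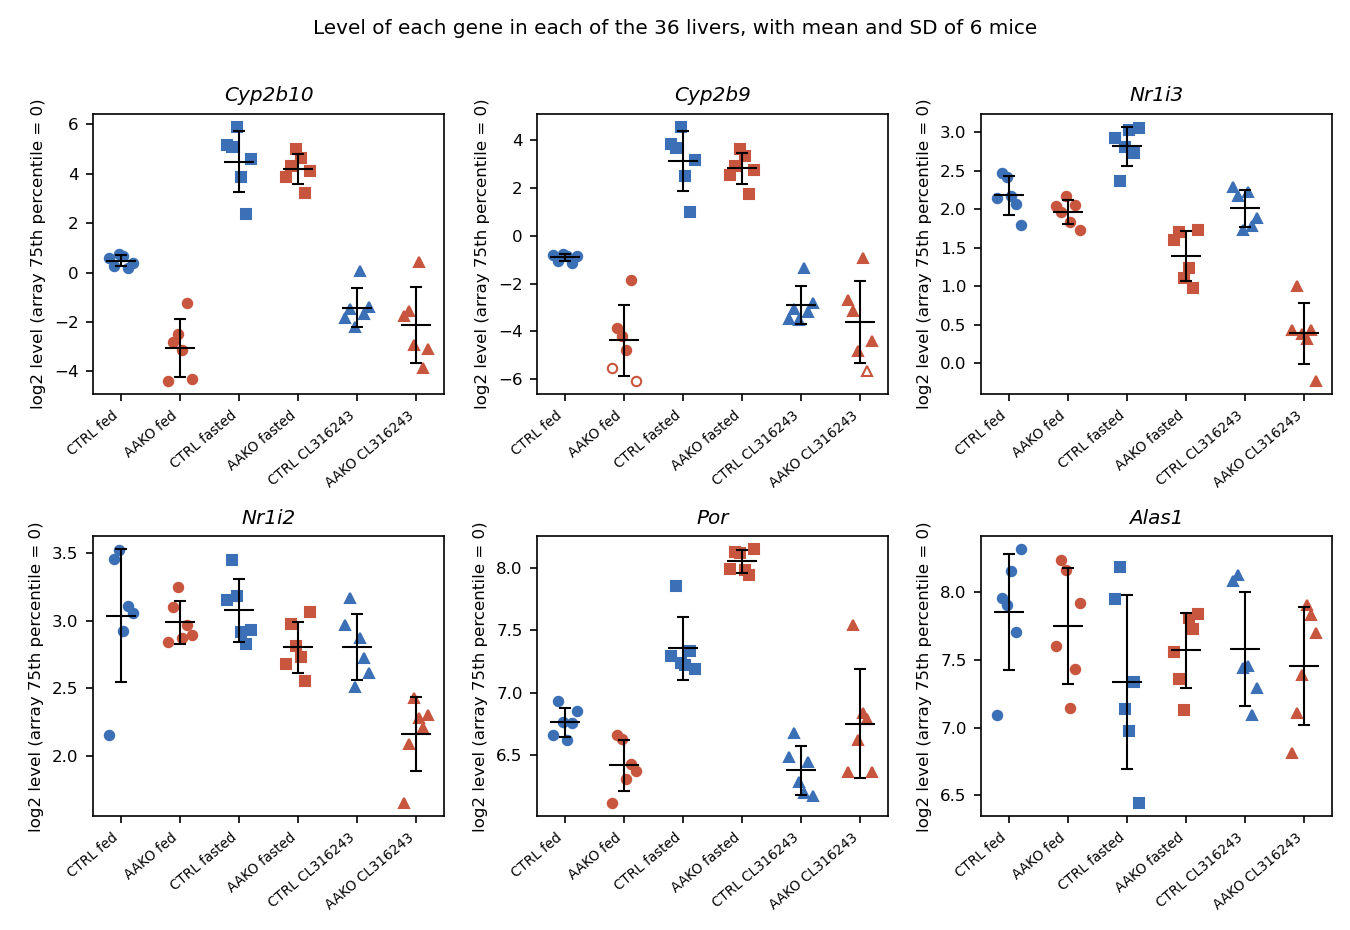
Log2 level (vertical axis, 0 = 75th percentile of the array) of 6 genes in each liver by group (horizontal axis), with the mean and SD of 6 mice in black. Blue is CTRL, red is AAKO, and open symbols are arrays not well above background. Cyp2b10 and Cyp2b9 lie highest in both fasted groups and lowest in AAKO fed, while Nr1i3 is lowest in AAKO CL316243 and Por highest in AAKO fasted.

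The second Cyp2b10 probe gave the same picture at a dimmer signal. It was well above background on 6 of 6 arrays in CTRL fed, CTRL fasted and AAKO fasted mice, on 1 of 6 in each CL316243 group and on 0 of 6 in AAKO fed. Fed CTRL mice had a mean of -3.89 ± 0.56, fasted CTRL mice one of 0.18 ± 1.21 and fasted AAKO mice one of -0.18 ± 0.69 (SD, n = 6). In each CL316243 group the array that passed was replicate 4, at -5.26 in CTRL and -3.57 in AAKO mice. For a probe that no array of a group measured, a fold is a lower bound, set by the dimmest signal among probes well above background on each array. By that bound the second probe was at least 3.66-fold higher in CTRL fed than in AAKO fed, and at least 47.8-fold higher in AAKO fasted than in AAKO fed. Its r with the brighter probe over 36 arrays was 0.988.

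**Figure D2:**
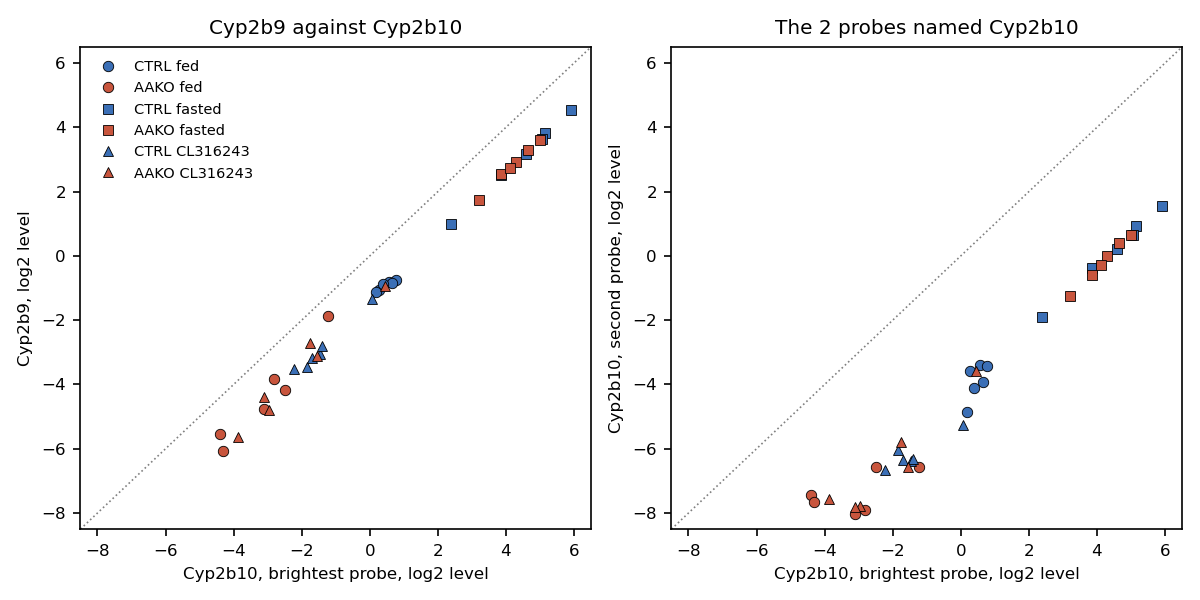
Log2 level of Cyp2b9 (left) and of the second Cyp2b10 probe (right) against the brighter Cyp2b10 probe in the 36 livers, by group, with the line of equal values dotted. Both relations run through all 6 groups, and the lowest points of the right panel are arrays on which the second probe was not well above background.

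Cyp2b13 ran from -7.94 to -5.74 over all 36 arrays. None was well above background, so no fold is given. Its group means lay between -7.35 and -6.33.

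The set was chosen by gene name around Cyp2b10 and Cyp2b9, which were selected on their measured values as among the genes with the largest differences between AAKO and CTRL when fed, and between fasted and CL316243 in CTRL mice. The values of the 6 tested genes in these 2 comparisons are therefore given without a test, and other comparisons that share those groups are not independent of the choice. In fed mice Cyp2b10 was 11.5-fold lower in AAKO than in CTRL (log2 -3.53 ± 0.58 SE) and Cyp2b9 11.1-fold lower (-3.47 ± 0.64 SE). Within wash batches 1 and 2 the values were -2.84 and -4.22 for Cyp2b10 and -2.72 and -4.22 for Cyp2b9. The log2 differences of the other genes in fed mice were -0.21 for Nr1i3, -0.05 for Nr1i2, -0.35 for Por and -0.10 for Alas1. With normexp background correction, Cyp2b10 was at -2.36 and Cyp2b9 at -1.65. The fit called 0.0783% of all genes here, and 2 of these 6, Cyp2b10 and Cyp2b9, from which nothing is read since this difference selected them.

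Between fasted and CL316243-treated CTRL mice, Cyp2b10 differed by 5.92 ± 0.58 on the log2 scale and Cyp2b9 by 6.01 ± 0.64 (SE), both higher when fasted. Por was higher by 0.98 and Nr1i3 by 0.81, while Nr1i2 differed by 0.27 and Alas1 by -0.24. The fit called 36.8% of all genes and 4 of the 6, from which, again, nothing is read. With normexp the Cyp2b9 value was 4.90. Without CTRL fasted replicate 2 the values were 5.77 for Cyp2b10, 5.88 for Cyp2b9, 0.88 for Por and 0.88 for Nr1i3. For Nr1i2 and Alas1 they were 0.18 and -0.40.

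The same comparison in AAKO mice was between groups that held none of the arrays above. Its wash batch term, SEs and adjusted p were not independent of those arrays, since one fit held all groups. In AAKO mice Cyp2b10 was 82.9-fold higher when fasted than after CL316243 (log2 6.37 ± 0.58 SE, limma adjusted p 4.63e-11), higher in 6 of 6 livers than in all 6 of the other group. Cyp2b9 was 87.3-fold higher (6.45 ± 0.64, adjusted p 3.04e-10). With normexp the values were 5.46 and 4.74. Por rose by 1.31 ± 0.14 (adjusted p 1.78e-09), Nr1i3 by 1.03 ± 0.15 (adjusted p 8.15e-07) and Nr1i2 by 0.66 ± 0.16 (adjusted p 0.000663). By the second Nr1i3 probe the difference was 1.68 ± 0.19. Alas1 differed by 0.07 ± 0.25 and was not called. So 5 of 6 genes were called, against 59.9% of all genes. Here and in the other counts Cyp2b10 and Cyp2b9 are counted separately, though the Cyp2b9 probe cannot tell their RNA apart. The Nr1i2 call was lost within wash batch 2, where the value was 0.30 (adjusted p 0.35) with 2 AAKO CL316243 arrays.

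When mice were fasted, the genotypes overlapped in Cyp2b10 and Cyp2b9. The fasted and the CL316243-treated CTRL groups gave values on which these genes were singled out. Their genotype differences in these states are therefore given without a test. When fasted, the AAKO value minus the CTRL value was -0.30 ± 0.58 for Cyp2b10 and -0.31 ± 0.64 for Cyp2b9 (SE). Without CTRL fasted replicate 2 it was -0.16 and -0.17. After CL316243 the differences were -0.76 ± 0.58 for Cyp2b10 and -0.74 ± 0.64 for Cyp2b9. These 2 were not of one sign by wash batch: Cyp2b10 was -1.55 in batch 1 and 0.56 in batch 2, and Cyp2b9 -1.44 and 0.41. In the fasted state, too, the sign differed by batch, at 0.18 and -0.78 for Cyp2b10 and 0.18 and -0.79 for Cyp2b9. Overlap with SEs of this size does not show that the genotypes were alike.

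Nr1i3, the gene of CAR, had overlapping levels in fed mice but was lower in AAKO than in CTRL livers both after a fast and after CL316243. It ran from 1.79 to 2.47 in CTRL fed (median 2.16), from 1.73 to 2.17 in AAKO fed (median 2.01), from 2.37 to 3.05 in CTRL fasted (median 2.87) and from 0.98 to 1.73 in AAKO fasted (median 1.42). After CL316243 it ran from 1.74 to 2.29 in CTRL (median 2.03) and from -0.23 to 1.00 in AAKO mice (median 0.40). The genotypes did not overlap in the fasted state or after CL316243, and overlapped when fed.

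The fasted difference in Nr1i3 was -1.43 ± 0.15, or 2.69-fold lower in AAKO (limma adjusted p 4.17e-09), and -1.51 (adjusted p 1.98e-09) without CTRL fasted replicate 2. After CL316243 the difference was -1.66 ± 0.15, or 3.15-fold lower (adjusted p 3.06e-09). Within wash batches 1 and 2 the values were -1.35 and -1.51 when fasted and -1.65 and -1.63 after CL316243. The second Nr1i3 probe, which starts from another part of the gene (mm9, chr1:173144301-173144529), gave -1.26 ± 0.19 and -2.04 ± 0.19, with no overlap between genotypes in either state. Its r with the brighter probe was 0.978 over 36 arrays.

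Nr1i2, the gene of PXR, was near 3 in most groups and lowest in AAKO mice given CL316243, where it ran from 1.65 to 2.43 (median 2.24). In CTRL mice given CL316243 it ran from 2.51 to 3.17 (median 2.80), without overlap, and the difference was -0.67 ± 0.16 (limma adjusted p 0.00233). The call was lost within wash batch 2, which holds 2 of the AAKO arrays, at -0.34 (adjusted p 0.469), and the value in batch 1 was -0.86. In fasted mice the difference was -0.27 ± 0.16 (adjusted p 0.164), and -0.18 (adjusted p 0.366) without CTRL fasted replicate 2, with CTRL fasted from 2.83 to 3.45 (median 3.04) and AAKO fasted from 2.56 to 3.07 (median 2.77). Fed CTRL mice ran from 2.16 to 3.53 (median 3.08), with replicate 1 the lowest, and fed AAKO mice from 2.84 to 3.25 (median 2.93).

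Por, the electron donor, was the one gene of the 7 called higher in AAKO mice within a state. It ran from 7.19 to 7.86 in CTRL fasted (median 7.27) and from 7.95 to 8.15 in AAKO fasted (median 8.06), with no overlap. The difference was 0.70 ± 0.14, or 1.62-fold (limma adjusted p 0.000114), and 0.81 (adjusted p 8.76e-06) without CTRL fasted replicate 2, which was the highest of its group. After CL316243 Por ran from 6.17 to 6.68 in CTRL (median 6.36) and from 6.36 to 7.55 in AAKO mice (median 6.70), and the difference of 0.37 ± 0.14 was not called (adjusted p 0.0528). It was called when CTRL fasted replicate 2 was left out (0.37, adjusted p 0.0359), and also without any one of AAKO fed replicate 1, CTRL CL316243 replicate 2, AAKO CL316243 replicate 1 and AAKO CL316243 replicate 6, with values from 0.38 to 0.45. Fed values ran from 6.62 to 6.93 in CTRL (median 6.76) and from 6.11 to 6.66 in AAKO mice (median 6.40).

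Alas1, the entry to haem synthesis, was not called between genotypes. Its means lay between 7.34 ± 0.64 in CTRL fasted and 7.86 ± 0.43 in CTRL fed (SD, n = 6), and every neighbouring pair of groups overlapped. The genotype difference was 0.23 ± 0.25 when fasted (limma adjusted p 0.468), and 0.38 (adjusted p 0.205) without CTRL fasted replicate 2, and -0.09 ± 0.25 after CL316243 (adjusted p 0.847). Its 2 other probes gave 0.26 and 0.19 when fasted and -0.09 each after CL316243. In all, 2 of the 6 genes were called between genotypes when fasted (Nr1i3 and Por), against 49.3% of all genes, and 2 after CL316243 (Nr1i3 and Nr1i2), against 24.8%. The 6 include Cyp2b10 and Cyp2b9, singled out on values of the CTRL groups compared, so nothing is read from these counts.

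**Figure D3:**
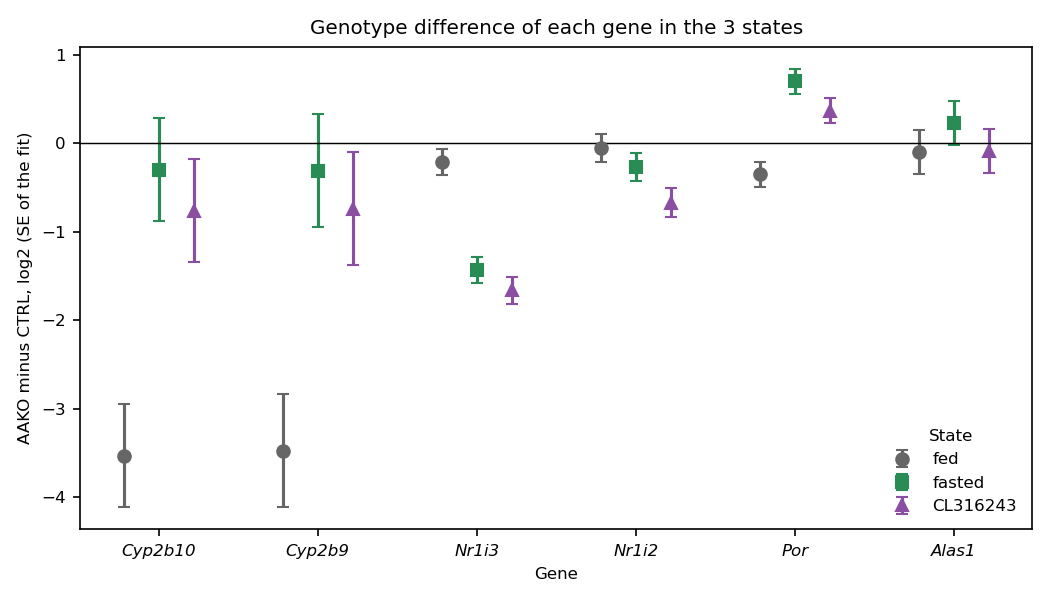
AAKO minus CTRL difference on the log2 scale (vertical axis, SE of the fit from 6 mice a group) for 6 genes in the fed, fasted and CL316243-treated state. Cyp2b10 and Cyp2b9 lie near -3.5 in fed mice only, whereas Nr1i3 lies at -1.43 when fasted and -1.66 after CL316243.

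Cyp2b10 was higher in fasted than in fed mice of both genotypes. In CTRL mice it rose by 4.02 ± 0.58 SE (16.3-fold, and 3.88 without CTRL fasted replicate 2), and in AAKO mice by 7.25 ± 0.58 (152-fold). Cyp2b9 rose by 4.02 ± 0.64 (3.88 without that array) and 7.18 ± 0.64. With normexp the AAKO values were 5.97 for Cyp2b10 and 5.05 for Cyp2b9. By the second Cyp2b10 probe the CTRL difference was 4.06 ± 0.55. Both fed groups and the fasted CTRL group gave values on which these genes were singled out, so these differences are given without a test. The size in AAKO mice also carries the low fed level of that group.

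Against fed mice, which are a separate experiment, Nr1i3 was higher in fasted CTRL mice and lower in fasted AAKO mice. Fasting and experiment cannot be told apart in either direction. Nr1i3 was higher in fasted CTRL mice by 0.64 ± 0.15 (limma adjusted p 0.000965) and lower in fasted AAKO mice by 0.57 on the log2 scale (SE 0.15, adjusted p 0.00162). The difference between these responses, the interaction of genotype with fasting, was -1.22 ± 0.22 (adjusted p 5.51e-05), and -1.29 (adjusted p 1.71e-05) without CTRL fasted replicate 2. The second Nr1i3 probe gave 0.61 ± 0.19 in CTRL and -0.40 ± 0.19 in AAKO mice, with fed and fasted ranges overlapping in each genotype. Por rose in both, by 0.59 ± 0.14 in CTRL (adjusted p 0.00086) and 1.64 ± 0.14 in AAKO mice (adjusted p 9.54e-12), with an interaction of 1.05 ± 0.20 (adjusted p 0.000119). Without that array the CTRL values were 0.72 for Nr1i3 and 0.49 for Por, and the Por interaction was 1.15 (adjusted p 1.05e-05).

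Nr1i2 and Alas1 were not called for fasting in either genotype. Nr1i2 differed by 0.04 ± 0.16 in CTRL (-0.05 without CTRL fasted replicate 2) and -0.18 ± 0.16 in AAKO mice, and Alas1 by -0.52 ± 0.25 (limma adjusted p 0.094) and -0.18 ± 0.25. Alas1 in CTRL mice was called without CTRL fed replicate 1, at -0.70, and without CTRL fasted replicate 2, at -0.67 (adjusted p 0.0311). Thus 4 of 6 genes were called in CTRL mice against 43.3% of all genes, and 4 of 6 in AAKO mice against 63.5%. For the interaction, 4 of 6 stood against 33.9%. Cyp2b10 and Cyp2b9 are among the called genes in each of these counts through groups on which they were singled out, so nothing is read from the counts. Within wash batch 1, Nr1i3 and Por in CTRL mice lost their calls, at 0.51 (adjusted p 0.153) and 0.48 (adjusted p 0.152), as did Nr1i3 in AAKO mice, at -0.50 (adjusted p 0.101). Its interaction stood at -1.01 with an adjusted p of 0.05 in that batch.

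In CTRL mice given CL316243, Cyp2b10 was 3.71-fold lower than in fed mice (log2 -1.89 ± 0.58 SE) and Cyp2b9 3.98-fold lower (-1.99 ± 0.64), without overlap. With normexp these were -1.51 and -1.21. Both groups gave values on which these genes were singled out, so the differences are given without a test. Within the wash batches Cyp2b10 was -1.59 in batch 1 and -2.20 in batch 2, and Cyp2b9 -1.65 and -2.34. In AAKO mice Cyp2b10 differed by 0.88 ± 0.58 and Cyp2b9 by 0.73 ± 0.64 (SE), from a fed level that was already low. That fed level was also among the values on which these genes were singled out, so no test is given. The 2 AAKO values differed in sign by wash batch, with Cyp2b10 at -0.30 in batch 1 and 2.57 in batch 2, and Cyp2b9 at -0.36 and 2.28.

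Both receptors were lower in AAKO mice given CL316243 than in fed AAKO mice, which are a separate experiment, so CL316243 and experiment cannot be told apart. Nr1i3 was lower by 1.61 on the log2 scale (SE 0.15, limma adjusted p 2.94e-09) and Nr1i2 by 0.85 (SE 0.16, adjusted p 0.000126). The Nr1i2 call was lost within wash batch 2, at -0.59 (adjusted p 0.158). In CTRL mice they differed by -0.16 ± 0.15 (adjusted p 0.495) and -0.23 ± 0.16 (adjusted p 0.329), and Nr1i2 was called there, at -0.40 (adjusted p 0.0393), without CTRL fed replicate 1. The interaction was -1.44 ± 0.22 for Nr1i3 (adjusted p 3.22e-05) and -0.62 ± 0.23 for Nr1i2 (adjusted p 0.0778, not called). Por was called lower in CTRL mice, at -0.39 ± 0.14 (adjusted p 0.0435), and not in AAKO mice, at 0.33 ± 0.14 (adjusted p 0.0743). Its interaction was 0.72 ± 0.20 (adjusted p 0.0161). The CTRL call of Por was lost without any one of 9 single arrays, with values from -0.45 to -0.35 over all arrays left out. That call was also lost under 7 of 14 other settings, among them either wash batch alone, at -0.33 (adjusted p 0.421) and -0.45 (adjusted p 0.134). Quantile normalization, at -0.30 (adjusted p 0.137), and the authors' deposited table, at -0.36 (adjusted p 0.057), were among them too.

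For CL316243 against fed mice, 3 of 6 genes were called in CTRL against 23.3% of all genes, and 2 of 6 in AAKO mice against 31.4%. The CTRL count includes Cyp2b10 and Cyp2b9 as called genes, and the AAKO count has them among the uncalled. They were singled out on values of both CTRL groups and of AAKO fed mice, so nothing is read from either count. The interaction with CL316243 called 4 of 6, against 10.9%. Of these 4, Cyp2b10 and Cyp2b9 are descriptions, since the interaction contains their fed genotype difference: 2.77 ± 0.82 and 2.73 ± 0.90 here, and 3.23 ± 0.82 and 3.16 ± 0.90 for the interaction with fasting (3.37 and 3.30 without CTRL fasted replicate 2). Their calls enter the count of 4 and are not read as tests. Without AAKO CL316243 replicate 4 the CL316243 values were 2.14 and 2.08, and neither was then called. For Cyp2b9 the call was lost under 9 of 14 other settings and without any one of 25 of the 36 arrays. With normexp background correction the Cyp2b10 and Cyp2b9 values were 2.01 and 1.52 for CL316243 and 2.08 and 1.36 for fasting. Within wash batch 1 none of the 4 was called, and within batch 2 the values of Nr1i3 and Por were -1.54 and 0.79 (adjusted p 0.132 for Por). The genotype difference was also compared directly between fasted and CL316243-treated mice, and there 0 of 6 genes were called by limma, against 32.3% of all genes. For Nr1i3 the value was 0.23 ± 0.22 by the tested probe and 0.78 ± 0.27 by the second, which was not tested. The 6 again include Cyp2b10 and Cyp2b9, singled out on the CTRL groups compared, so nothing is read from this count. The unadjusted count over all genes in that contrast was 10003 at p under 0.05.

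**Figure D4:**
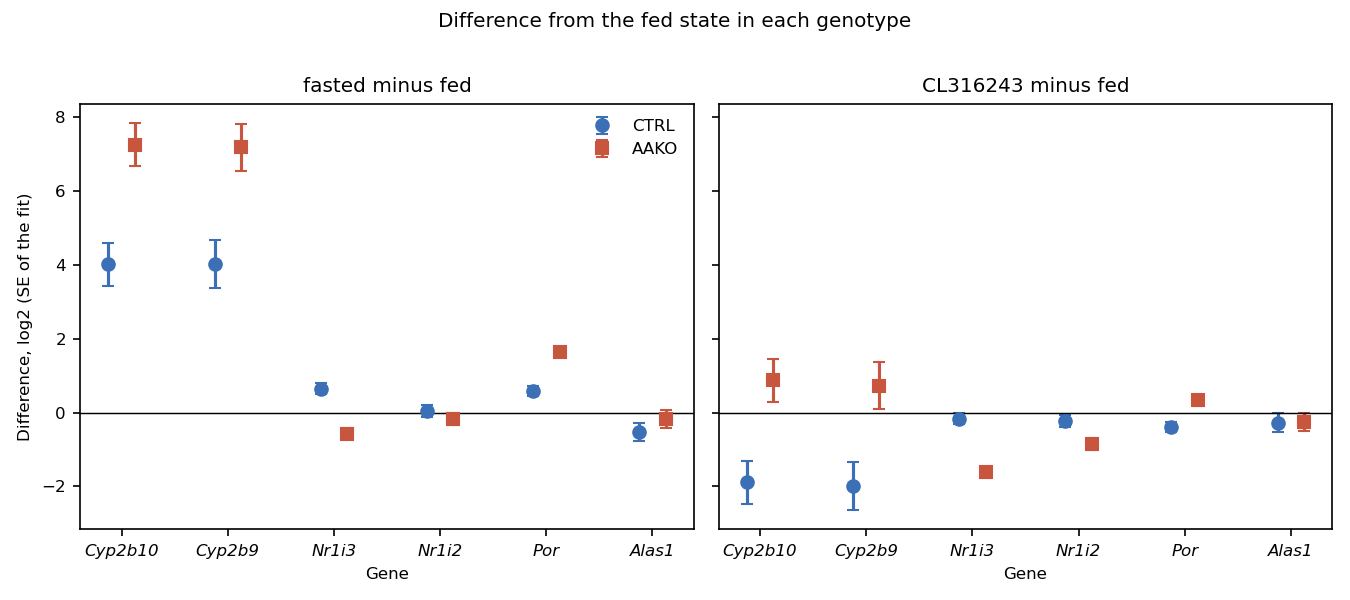
Difference from the fed state on the log2 scale (vertical axis, SE of the fit from 6 mice a group) for 6 genes after fasting (left) and after CL316243 (right), in CTRL (blue) and AAKO (red) mice. Fed groups are a separate experiment in the labels, and Nr1i3 is at 0.64 in CTRL and -0.57 in AAKO mice on the left.

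Markers of other cells moved with some of these groups. Of all genes, 49.3% were called between fasted genotypes and 24.8% between genotypes after CL316243. Of the 4 neutrophil markers, 3 were called higher in AAKO than in CTRL fasted mice and 0 after CL316243, and their summed level ran from -0.16 to 5.76 in CTRL fasted and from 2.65 to 6.39 in AAKO fasted. All 4 were well above background on at least 1 array of each group. CTRL CL316243 ran from -0.67 to 1.92 and AAKO CL316243 from 1.08 to 2.91. Their part in the values of Nr1i3 and Por was not tested. Pericentral hepatocyte markers, from the zone where CYP2B enzymes are known to be most abundant, had 4 of 6 called lower in AAKO fasted mice and 1 of 6 after CL316243. Their summed level ran from 9.95 to 10.15 in CTRL fasted and from 9.78 to 9.99 in AAKO fasted. Periportal markers ran from 9.32 to 9.63 and from 9.70 to 9.79 in those groups, and stellate cell markers from 6.04 to 6.36 and from 6.36 to 6.77. Markers also moved between CL316243-treated and fed mice, where 23.3% of all genes were called in CTRL and 31.4% in AAKO mice. Of 5 Kupffer cell markers, 4 were called lower in CTRL (median -1.11) and 4 in AAKO mice (median -1.20). All 4 stellate cell markers were called lower in both (medians -0.59 and -0.58). Of 4 endothelial markers, 3 were called lower in CTRL (median -0.72) and 1 in AAKO mice (median -0.26). For fasting, 3 of 4 neutrophil markers were called higher in AAKO and 0 in CTRL mice, against 63.5% and 43.3% of all genes called. The part of these shifts in the CL316243 and fasting values of the Cyp2b genes, the receptors and Por was not tested either.

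Other targets of CAR and PXR were counted beside Cyp2b10. The list held 37 enzymes, of which 33 were tested. Between fasted genotypes 5 were called higher and 16 lower in AAKO mice, with a median log2 difference of -0.31 against -0.04 over all genes. After CL316243, 3 were higher and 9 lower, with a median of -0.20 against 0.03. The fit called 49.3% of all genes in the first of these comparisons and 24.8% in the second. In fed mice 0 of 33 were called, against 0.0783% of all genes, and the median was -0.12. In fasted against fed CTRL mice, 19 were called lower and 3 higher (median -0.49 against -0.02 over all genes). In AAKO mice 20 were lower and 4 higher (median -0.76 against -0.09), while Cyp2b10 was higher when fasted in both genotypes. The fed mice are a separate experiment. Of all genes, 43.3% and 63.5% were called for fasting in CTRL and AAKO mice. Without CTRL fasted replicate 2 the fasted genotype count was 5 higher and 17 lower, and the CTRL fasting count 3 higher and 17 lower.

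Named from that list by the size of their difference, Akr1b7 was higher in AAKO than in CTRL fasted mice by 4.31 ± 0.47 (limma adjusted p 4.89e-09), with means of 2.06 ± 0.63 and -2.25 ± 1.02 (SD, n = 6). It encodes an aldo-keto reductase. Sult1e1, the oestrogen sulfotransferase, was higher by 3.32 ± 0.59 (adjusted p 1.91e-05), and after CL316243 by 1.94 ± 0.59 (adjusted p 0.0144). Ephx1, the microsomal epoxide hydrolase, was lower in fasted AAKO mice at -1.26 ± 0.11 (adjusted p 1.09e-10), with 6.01 ± 0.21 against 7.27 ± 0.24. Cyp3a13 was higher by 0.85 ± 0.17 after CL316243 (adjusted p 0.000365).

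Of 6 transporters, 2 were called higher and 2 lower in fasted AAKO mice, and 2 lower after CL316243, where 49.3% and 24.8% of all genes were called. Abcc3, an exporter of bile acid and drug conjugates, was lower by genotype in both states, at -1.99 ± 0.21 when fasted (limma adjusted p 2.93e-09) and -1.39 ± 0.21 after CL316243 (adjusted p 9.12e-06). Slco1b2, an uptake carrier, was at -1.59 ± 0.15 when fasted (adjusted p 3.18e-10), and Abcc4, another exporter, was higher by 1.53 ± 0.23 (adjusted p 1.37e-06). Abcb1a was at -0.59 ± 0.20 after CL316243 (adjusted p 0.0313). The median over the 6 was -0.01 when fasted and -0.21 after CL316243.

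Partners and regulators of the receptors gave 14 of 25 called higher and 5 lower in fasted AAKO mice (median 0.26 against -0.04 over all genes), and 2 higher and 7 lower after CL316243 (median -0.08 against 0.03). Of all genes, 49.3% and 24.8% were called. Rxrg, a partner of the RXR family, was lower in both states, at -1.65 ± 0.18 when fasted (limma adjusted p 3.53e-09) and -2.18 ± 0.18 after CL316243 (adjusted p 2.61e-10). Egfr, the receptor whose signal is known to keep CAR inactive, was higher in fasted AAKO mice by 2.27 ± 0.23 (adjusted p 1.62e-09), with 7.83 ± 0.09 against 5.55 ± 0.75 (SD, n = 6). Gadd45b was higher by 1.32 ± 0.32 (adjusted p 0.000767) when fasted, and Ppara, the fatty acid receptor, was at -1.21 ± 0.13 after CL316243 (adjusted p 5.31e-08).

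Beside Alas1, the haem list gave 2 of 12 called higher and 8 lower in fasted AAKO mice (median -0.48 against -0.04 over all genes), and 1 higher and 3 lower after CL316243, against 49.3% and 24.8% of all genes called. Cpox, which makes protoporphyrinogen, was at -2.31 ± 0.11 when fasted (limma adjusted p 3.22e-16) and -1.12 ± 0.11 after CL316243 (adjusted p 7.87e-09). Uros was at -1.26 ± 0.11 when fasted (adjusted p 8.28e-11). Hmox1, the haem oxygenase that breaks haem down, was higher by 1.49 ± 0.26 (adjusted p 1.81e-05). Blvrb was at -0.51 ± 0.12 after CL316243 (adjusted p 0.00178).

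Beside Por, 4 of 6 genes of microsomal electron transfer were called lower and 0 higher in fasted AAKO mice (median -0.28 against -0.04 over all genes), and 4 lower and 0 higher after CL316243 (median -0.23 against 0.03). The shares of all genes called were 49.3% and 24.8%. Under other processing, and with single arrays left out, the fasted count of lower genes ran from 2 to 4. Within wash batch 1 it was 2, and within batch 2 it was 2, with 1 gene higher. After CL316243 it was 3 within batch 1 and 0 within batch 2. Pgrmc2, a haem-binding membrane protein, was at -1.41 ± 0.10 when fasted (limma adjusted p 6.36e-13) and -0.35 ± 0.10 after CL316243 (adjusted p 0.00774). Pgrmc1 was at -0.58 ± 0.07 (adjusted p 9.61e-09) and Cyb5r1 at -0.37 ± 0.12 (adjusted p 0.0131) when fasted, and Cyb5b at -0.40 ± 0.14 after CL316243 (adjusted p 0.0344). Por, called higher in the same fasted comparison, lay on the other side of 0 from the 4 called genes.

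**Figure D5:**
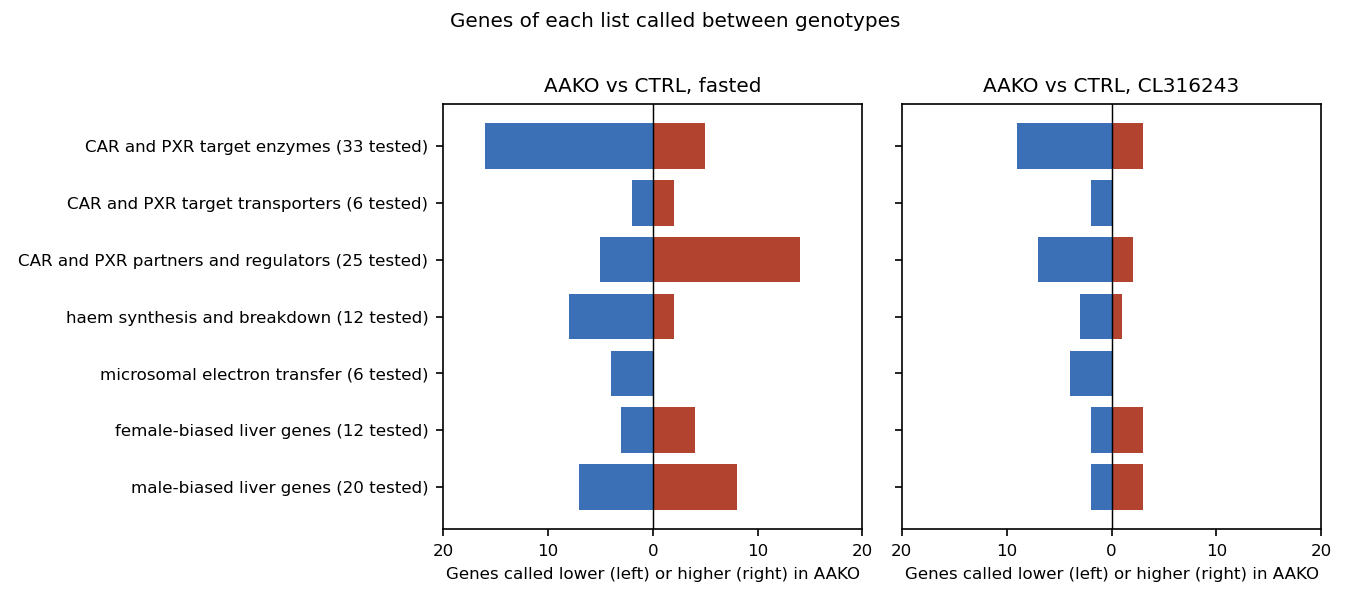
Number of genes (horizontal axis) called lower (blue, left) or higher (red, right) in AAKO than in CTRL mice, for 7 lists, when fasted and after CL316243. Among CAR and PXR target enzymes, 16 were lower and 5 higher when fasted, while among partners and regulators 5 were lower and 14 higher.

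Since Cyp2b9 and Cyp2b13 are known for their female bias, 2 lists of sex-biased liver genes were read in these males. Of 12 female-biased genes tested (of 17), 6 were called higher and 1 lower in fasted than in fed CTRL mice (median 0.56). In AAKO mice 5 were higher and 3 lower (median 0.23). The shares of all genes called were 43.3% and 63.5%. With normexp these medians were 0.22 and 0. Of 20 male-biased genes tested (of 21), 12 were called lower and 1 higher in fasted than in fed CTRL mice (median -0.67). In AAKO mice 16 were lower and 1 higher (median -0.67). By genotype when fasted, 4 female-biased genes were higher and 3 lower, and 8 male-biased genes were higher and 7 lower, against 49.3% of all genes called. After CL316243 the counts were 3 and 2 for each list, against 24.8% of all genes called. Under other processing the female-biased counts ran from 0 to 3 higher and from 0 to 2 lower. They were 1 and 0 within wash batch 1, and 0 and 0 within batch 2. The male-biased counts ran from 1 to 4 higher and from 2 to 4 lower, and were 0 and 0 within batch 1 and 1 and 0 within batch 2. Cux2, a female-specific liver repressor, was higher in fasted AAKO mice by 3.56 ± 0.60 (limma adjusted p 9.06e-06) and after CL316243 by 2.35 ± 0.60 (adjusted p 0.00394). Since the CL316243 count of higher genes reached 0, that call of Cux2 was not kept under every setting.

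Abcd2, a peroxisomal transporter of the female-biased list, was at -1.74 ± 0.49 between fasted genotypes (limma adjusted p 0.0037). Of the male-biased list, Elovl3, a fatty acid elongase, was at -3.12 ± 0.25 when fasted (adjusted p 8.96e-12) and -0.75 ± 0.25 after CL316243 (adjusted p 0.0239). Keg1 was at -1.94 ± 0.22 (adjusted p 1.24e-08) and Nudt7 higher by 1.72 ± 0.14 (adjusted p 1.06e-11) when fasted. Cyp7b1, an oxysterol hydroxylase, was higher by 0.71 ± 0.24 after CL316243 (adjusted p 0.0293).

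Position was also compared, by a rule added after the values of the 7 genes were known. The RefSeq table, used for the order of genes, placed 13 protein-coding Cyp2 genes and 4 Cyp2 pseudogenes between Cyp2s1 and Cyp2t4, with Cyp2b10, Cyp2b13 and Cyp2b9 among them. Of the 10 other coding genes, 8 were tested. In fed mice 0 of the 8 were called between genotypes, where only 0.0783% of all genes were called. Fasting in CTRL mice called 1 higher and 4 lower, and CL316243 in CTRL mice 0 higher and 4 lower, where 43.3% and 23.3% of all genes were called. Cyp2a5 and Cyp2a4 are close paralogs whose probes may share signal. Both were lower in fasted than in fed CTRL mice, by 1.25 and 1.56 on the log2 scale (limma adjusted p 9.83e-05 and 0.000139), where Cyp2b9 and Cyp2b10 were higher. Between fasted genotypes both were called higher in AAKO, Cyp2a5 by 0.95 (adjusted p 0.00179), and after CL316243 lower, at -0.81 (adjusted p 0.0156) and -0.92 (adjusted p 0.0309).

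By Pearson r over the 36 arrays, the tested genes most like Cyp2b10 after Cyp2b9 were Sulf2 (0.923), an unnamed transcript (0.917), Tpd52l1 (0.907) and Acot12 (0.903). Sulf2, a sulfatase of heparan chains, was higher in fasted than in fed mice by 1.71 in CTRL (limma adjusted p 3.93e-10) and 1.82 in AAKO mice (adjusted p 1.83e-11). For the other genes, which were added to this ranking after the values were seen, Nr1i3 was most like Smim4 (0.89), Als2cl (0.885) and Alpl (0.884). Por was most like Gpt2 (0.951), the mitochondrial alanine aminotransferase, and Aass (0.944), and Nr1i2 most like Hlf (0.77). Within groups, after group and wash batch were taken out, Nr1i2 and Alas1 had an r of 0.696, whereas Nr1i3 and Alas1 had -0.0803 and Nr1i3 and Cyp2b10 had 0.159. The points share the 6 groups and the normalization, and no p is given.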

How the data were processed

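RNA of 36 mouse livers was hybridised to 1-colour Agilent arrays, 1 per mouse. Per the file headers, the deposited spot intensity values came from version 10.10.1.1 of Agilent Feature Extraction, including a processed signal that is already corrected for background. The authors' deposited value table holds log2 values of 36898 probes, identical in distribution within each group, and was used only as an alternative, since its normalization is not given in the sources used here.

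Control spots and 2701 outlier spots (0.127%) were left out, and no spot was saturated (0). Processed signals were taken to log2, each array's 75th percentile was subtracted, and spots of a probe were averaged. Of the probes, 32994 were named through their accession in the RefSeq table (GRCm38.p6), which changed 1535 symbols, and the others kept the name in the file. A gene was represented by its brightest probe and tested if 5 or more of the 6 arrays of a group had that probe well above background. One limma 3.58.1 model (R 4.3.3) held the 6 groups and the wash batch, of which there were 2, each with arrays of all groups. P-values were adjusted by Benjamini-Hochberg over 24251 genes, and called means an adjusted p under 0.05. SDs are over 6 mice and SEs come from the fit, and the number of arrays limits the precision. The fit was tested on simulated data. Figures were drawn with matplotlib 3.10.9.

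The 7 genes and all gene lists were chosen with earlier results of these data known. From each list, the text names the called genes with the largest differences between genotypes, up to 3 when fasted and 2 after CL316243. One gene that this rule names is not reported here. The genes most like Cyp2b9 and Cyp2b10 were the 5 with the highest Pearson r. Alternatives covered background correction, scaling, the filter, the probe rule, wash batch, slide, the replicate number, the samples in the fit, the authors' table and each array left out.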

Additional observations from a re-analysis of the deposited data

Results flagged for a closer look

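Dixon's ratio was applied to 66 sets of 6 arrays, 1 probe in 1 group each, and marked 4, where chance marks about 1 in 20. In CTRL mice given CL316243, replicate 4 was high for Cyp2b10, at 0.07 against -1.39 for the next array, and for Cyp2b9, at -1.35 against -2.81. Cyp2b13 in AAKO fed replicate 2 was at -5.75 against -7.29 for the next, on an array where it was not well above background. Por in CTRL fasted replicate 2 was at 7.86 against 7.33 for the next.

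The response to fasting differed between genotypes (AAKO minus CTRL, log2) by 3.16 for Cyp2b9, 3.23 for Cyp2b10, -1.22 for Nr1i3 and 1.05 for Por. The response to CL316243 differed by 2.73 for Cyp2b9, 2.77 for Cyp2b10, -1.44 for Nr1i3 and 0.72 for Por. The Cyp2b values contain the fed difference on which those genes were singled out.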

How the results depend on the processing

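Of 896 single-gene values under other processing, 833 kept direction and side of the threshold, 40 lost a call, 6 gained one and 17 turned sign, all of the last uncalled. With single arrays left out, 2245 of 2304 were kept, and 8 turned sign. The genotype differences of Nr1i3 in fasted and CL316243-treated mice were called under every other processing run. The number of the 6 genes called between fed genotypes (2, the genes selected on that difference, so not a test) was 1 with normexp background, 1 with only those groups in the fit, and 0 in either wash batch, and ran from 1 to 2 with single arrays left out. Within wash batch 1 the counts were 0 for CL316243 against fed in CTRL, 1 for the fasting interaction, 0 for the CL316243 interaction and 1 (Nr1i2) for the genotype effect in fasted against CL316243-treated mice. Within wash batch 2 they were 1 for genotype after CL316243, 0 for CL316243 against fed in CTRL, 1 in AAKO, and 2 for the CL316243 interaction. With fewer arrays, batches have less precision. With single arrays left out, the CL316243 interaction count ran from 2 to 5, the lowest without AAKO CL316243 replicate 4, and the fasted against CL316243 count from 0 to 1. Cyp2b9 in fed mice lost its call with normexp, at -1.65, and without CTRL fed replicate 1, AAKO fed replicate 1 or AAKO fed replicate 6 (-3.42, -3.25 and -3.14). Its CL316243 interaction lost the call without any one of 25 arrays, at 2.08 to 2.78. Neither of these Cyp2b9 calls is read as a test, since the fed difference selected the gene.

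Signs turned as follows, and the cause was not tested. Between fed genotypes, in wash batch 2, Nr1i2 was 0.17 and Alas1 0.22. Between fasted genotypes, with slide as a fixed factor, Cyp2b9 was 0.09 and Cyp2b10 0.04, in wash batch 1 both were 0.18, and in batch 2 Alas1 was -0.01. After CL316243, in batch 2, Cyp2b9 was 0.41, Cyp2b10 0.56 and Alas1 0.04. For fasted against fed CTRL, Nr1i2 was -0.03 with array median scaling and -0.32 in batch 1, and Alas1 was 0 in batch 2. For CL316243 against fed AAKO in batch 1, Cyp2b9 was -0.36 and Cyp2b10 -0.30. Alas1 in fasted against CL316243-treated CTRL was 0.10 in batch 2, and the Nr1i2 fasting interaction 0.24 in batch 1. With single arrays left out, Nr1i2 ran from -0.22 to 0.04 between fed genotypes and from -0.13 to 0.13 for fasting in CTRL. Alas1 ran from -0.17 to 0.06 between genotypes after CL316243 and from -0.04 to 0.16 for fasted against CL316243 in AAKO.

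The titles share replicate numbers, but the numbers did not pair the samples. Over 90 same-number pairs the mean correlation of deviations was -0.00106, against 0.000196 for other pairs, and 16 pairs were over 0.1. As a block, the number left every count of called genes within 1.5 times its value. Por after CL316243 became called between genotypes (0.38, limma adjusted p 0.0097) and against fed AAKO (0.34, adjusted p 0.0165). The Cyp2b9 interaction with CL316243, which is not read as a test, lost its call (2.72).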
